A study of Mus musculus with 14 samples.

Results

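A set of 10 genes widely used as markers of pluripotent or stem-like cells was followed in mouse ovarian tumor cells grown as tumorspheres. They were taken by gene symbol from the deposited expression table, and all 10 were found among its 35275 genes. They are Sox2, Nanog, Pou5f1, Zfp42 and Lin28a of the pluripotency network, the surface antigens Prom1, Cd44 and Kit, and the alkaline phosphatases Alpl and Alppl2. The 14 RNA samples came from 5 lines of C57Bl6 origin, all grown for 5 days without attachment in PromoCell XF medium and left untreated. KMF cells (n = 3) derive from ID8 mouse ovarian cells passaged in vivo and carry unedited Ptk2, the gene for focal adhesion kinase (FAK). FAK KO cells (n = 3) are KT13, a single clone of KMF whose Ptk2 was disrupted by CRISPR/Cas9. FAK-WT cells (n = 3) are KT13 with lentiviral GFP-FAK. FAK-R454 cells (n = 2) are KT13 with lentiviral GFP-FAK-R454, which has no kinase activity. β-catenin ΔGSK cells (n = 3) are KT13 with an active β-catenin delivered by a retrovirus that expresses GFP separately. The 3 lines with an added gene therefore carry the same knockout as FAK KO cells. In any comparison with KMF cells, a property of the KT13 clone cannot be told apart from loss of FAK. These 3 lines were also transduced, selected with a drug and enriched by flow cytometry, and no line with an empty vector is among the samples. In a comparison with FAK KO cells, effects of these steps cannot be told apart from those of the added gene. Nothing in the sources used here says that replicates of the 4 KT13-derived lines came from separate cultures, so p-values there measure the spread between RNA samples.

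Sox2, Pou5f1 (Oct4) and Nanog encode transcription factors that together maintain the pluripotent state of early embryo and embryonic stem cells, and Zfp42 (Rex1) is a zinc finger gene transcribed in those cells. Lin28a binds RNA and blocks maturation of let-7 microRNAs. Cd44 is a receptor for hyaluronan, Kit is the receptor tyrosine kinase for stem cell factor, and Prom1 encodes CD133, and all 3 have been used to sort tumor-initiating cells in carcinomas. Alkaline phosphatase staining is a classical test for pluripotent cells. Alpl encodes the tissue-nonspecific enzyme of bone, liver and kidney, while Alppl2 encodes an enzyme of the placental and intestinal group found in the early embryo.

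The genes Cd44, Kit, Alpl, Alppl2 and Lin28a each passed in at least 1 of the comparisons below, and the 250 bases before their start are shown to put the sequence of these promoters beside the levels. The sequences are from RefSeq on build GRCm38.p6, written 5′ to 3′ on the strand of the gene. All 10 genes had such a window, and Nanog, Pou5f1, Prom1, Kit and Alpl had 2, for 2 starts. Only the first is shown for Kit and Alpl, and which start these cells use was not tested. The capitals mark each match to 4 motifs searched on both strands, the TCF/LEF core CTTTGA, through which β-catenin acts on DNA, the AP-1 site TGACTCA, the E-box CACGTG and the GC box GGGCGG. The window of Cd44 is chr2:102901666-102901915 (minus strand), that of Kit is chr5:75574737-75574986 (plus strand), that of Alpl is chr4:137796385-137796634 (minus strand), that of Alppl2 is chr1:87089929-87090178 (minus strand) and that of Lin28a is chr4:134018817-134019066 (minus strand).
Cd44: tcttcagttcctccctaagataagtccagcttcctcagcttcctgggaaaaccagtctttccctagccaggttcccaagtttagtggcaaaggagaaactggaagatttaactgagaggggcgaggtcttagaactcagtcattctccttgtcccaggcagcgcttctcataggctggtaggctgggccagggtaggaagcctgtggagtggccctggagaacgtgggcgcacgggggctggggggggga
Kit: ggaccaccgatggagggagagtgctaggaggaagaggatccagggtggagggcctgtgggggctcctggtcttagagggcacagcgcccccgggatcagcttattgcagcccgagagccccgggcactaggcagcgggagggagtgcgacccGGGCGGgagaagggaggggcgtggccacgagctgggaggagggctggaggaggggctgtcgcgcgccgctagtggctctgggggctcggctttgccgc
Alpl: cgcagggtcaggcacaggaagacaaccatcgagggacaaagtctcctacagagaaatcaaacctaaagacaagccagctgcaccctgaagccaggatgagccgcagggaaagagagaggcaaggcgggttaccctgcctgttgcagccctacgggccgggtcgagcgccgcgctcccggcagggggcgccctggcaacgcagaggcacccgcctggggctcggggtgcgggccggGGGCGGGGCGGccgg
Alppl2: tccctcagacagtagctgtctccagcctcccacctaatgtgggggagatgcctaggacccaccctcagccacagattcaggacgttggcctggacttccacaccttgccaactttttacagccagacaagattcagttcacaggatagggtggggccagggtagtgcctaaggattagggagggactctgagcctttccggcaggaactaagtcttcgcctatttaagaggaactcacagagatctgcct
Lin28a: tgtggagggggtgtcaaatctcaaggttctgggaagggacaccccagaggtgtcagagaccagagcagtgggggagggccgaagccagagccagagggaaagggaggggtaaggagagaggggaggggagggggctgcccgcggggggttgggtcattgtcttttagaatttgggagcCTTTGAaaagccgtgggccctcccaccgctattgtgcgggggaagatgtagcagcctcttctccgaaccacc
Kit had 1 GC box, from 98 to 93 bases before the start, and Alpl had 2 that overlap, from 15 to 10 and from 10 to 5 bases before it. The second window of Alpl, chr4:137766476-137766725, held no GC box. Lin28a had 1 TCF/LEF core, from 72 to 67 bases before the start, and no window of the other 9 markers had one. Only the exact letters given were searched, so variant forms of the motifs were not looked for. None of the 4 motifs was found in the windows of Cd44 and Alppl2. Of 32851 windows of the same length, 32.7% held a GC box, 13.8% the TCF/LEF core, 6.02% the E-box and 4.46% the AP-1 site. The windows of Kit and Alpl were rich in G and C, at 70.8% with 17 CpG and 68.4% with 20 CpG. Those of Cd44 and Alppl2 had 56.4% with 5 CpG and 54% with 3 CpG, and that of Lin28a 61.2% with 7 CpG, against medians of 52.4% and 6 CpG over all windows.

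The table gives FPKM, fragments per kilobase of gene length scaled to the mapped fragments of each sample, which allows levels to be set side by side between genes. Dividing each value by the worth of 1 fragment gave whole fragment numbers for 100% of values (within 0.01), and between 25390558 and 35289859 fragments per sample fell on genes. The targeted gene was still transcribed in the knockout, with Ptk2 at 19.0 ± 1.45 FPKM in FAK KO against 24.3 ± 0.421 in KMF cells (SD, n = 3 each), and it was highest in the 2 lines given GFP-FAK, at 43.4 ± 1.76 in FAK-WT and 62.4 ± 4.42 in FAK-R454 cells. The β-catenin gene Ctnnb1 stood at 214 ± 8.24 FPKM in β-catenin ΔGSK, 200 ± 6.12 in KMF, 145 ± 4.63 in FAK KO and 129 ± 1.18 in FAK-WT samples (SD, n = 3 each) and at 136 ± 4.35 in FAK-R454 samples (n = 2). Of 11 markers of ovarian surface or mesothelial epithelium, between 8 and 10 were above 1 FPKM in each line. The 11 summed to 1132 to 1876 FPKM per sample, led by Krt8 and Krt19. Single genes of the list differed by line. Upk3b was 31.6 ± 0.649 FPKM in FAK-R454 (n = 2) and 4.03 ± 0.942 in FAK KO samples (mean ± SD, n = 3). Lrrn4 was 1.14 and 0.262 FPKM, and Bnc1 1.43 and 0.236 FPKM, in these lines. Bnc1 reached 1.99 FPKM in the β-catenin ΔGSK line. Wt1 was 227 FPKM there against 97.8 in FAK KO cells, while Krt8 (181 against 317) and Msln (47.8 against 70.2) were lower. Among markers of other epithelium Epcam, itself a stem-cell marker, was low, at 0.280 ± 0.110 FPKM in KMF and 0.539 ± 0.0961 in the β-catenin ΔGSK line (mean ± SD, n = 3 each), while the 6 genes summed to 46.5 to 112 FPKM. Of these Cldn3 ran from 22.1 to 63.6 FPKM by line. Krt14 was 53.4 ± 6.98 FPKM in KMF, 53.3 ± 12.9 in FAK-WT, 11.4 ± 0.259 in FAK KO and 5.19 ± 1.55 in the β-catenin ΔGSK line (mean ± SD, n = 3 each) and 23.8 ± 1.30 in FAK-R454 samples (n = 2). The leukocyte list of 8 genes summed to 0.420 to 1.75 FPKM, with Tyrobp at 0 in every sample and Ptprc at 0 in 4 lines. Others of the list were present, with Cd53 at 0.151 to 0.698 and Fcer1g at 0.322 to 0.528 FPKM by line. Cd52 ran from 0 in KMF to 0.507 FPKM in FAK-WT cells. The 6 endothelial markers summed to 6.68 to 30.0 FPKM and the 6 fibroblast markers to 30.8 to 145 FPKM per sample. Of the former Tek ran from 6.75 to 28.7 FPKM by line, with Kdr and Cdh5 at 0.0227 FPKM or less. Pecam1, also endothelial, ran from 0.286 in β-catenin ΔGSK to 1.17 FPKM in FAK-WT cells. Of the fibroblast markers Dcn ran from 33.1 to 113 FPKM, with Col1a2 and Lum at 0.0171 FPKM or less. Dcn, Pdgfra and Col1a1 were above 1 FPKM in 4 lines, and Dcn alone of the 6 in the β-catenin ΔGSK line. Col1a1 was 9.12 ± 2.30 FPKM in FAK-WT, 2.46 ± 0.142 in KMF, 1.33 ± 0.344 in FAK KO and 0.194 ± 0.0702 in the β-catenin ΔGSK line (mean ± SD, n = 3 each) and 10.1 ± 1.51 in FAK-R454 samples (n = 2). The part of these cell types in the results below was not tested.

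The 10 markers were sorted by the highest of their 5 line means, as silent below 0.1 FPKM, low from 0.1 to 1 FPKM and expressed above 1 FPKM. Silent in all lines were 5 genes, Sox2, Zfp42, Pou5f1, Prom1 and Lin28a. Nanog, Kit and Alpl were low, and Cd44 and Alppl2 were expressed. By the same limits 52.8% of all genes in the table, and 37.9% of its 22026 protein-coding genes, were silent, 12.5% and 10.4% low, and 34.7% and 51.7% expressed, so the markers' 5 of 10 silent was near the shares of the table. Taking the median of replicates in place of the mean moved none of them, and limits of 0.05 and 0.5 FPKM moved Lin28a from silent to low. Below, lines are called apart, or samples above others, by their values alone. The share of all genes that separate in the same way was not counted. The map of fragments by gene and sample shows how few fragments stand behind the low values.

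**Figure D1:**
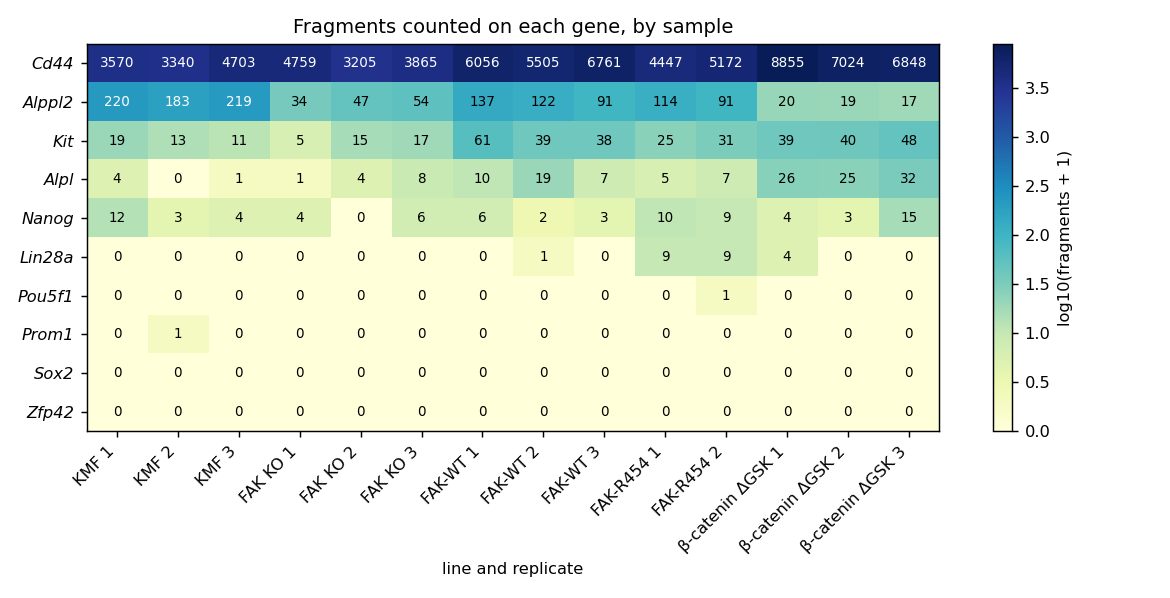
Number of fragments counted on each of the 10 marker genes (rows) in each of the 14 samples (columns, by line and replicate), with color giving log10(fragments + 1). Cd44 had 3205 or more fragments in every sample, Sox2 and Zfp42 had none, and 18 of the 23 fragments of Lin28a were in the 2 FAK-R454 samples.

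Of the core pluripotency factors, Sox2 (ENSMUSG00000074637, chr3:34650405-34652461, plus strand, GRCm38) had 0 fragments in each of the 14 samples. At these depths 3 fragments would read as 0.0413 to 0.0574 FPKM, so a count of 0 allows up to that level in a sample. Zfp42 (ENSMUSG00000051176, chr8:43295068-43307009, minus strand) also had 0 fragments in all 14 samples, with a limit of 0.0472 to 0.0656 FPKM. Pou5f1 (ENSMUSG00000024406, chr17:35506018-35510772, plus strand) had a single fragment, in FAK-R454 replicate 2, and 0 in the other 13 samples, where the limit was 0.0624 to 0.0868 FPKM. These limits cover counting error only. Transcripts of these 3 genes were thus not detectable at this depth in 4 lines, and in FAK-R454 cells only by the lone Pou5f1 fragment.

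Sox2 lies inside the longer noncoding gene Sox2ot on the same strand, which had at most 0.0307 FPKM in any sample. Genes of the opposite strand that overlap Pou5f1, Lin28a and Prom1 (Gm19553, Gm13061 and Gm16401) were at 0 in all samples. Pou2f1, a relative of Pou5f1 that most tissues transcribe, was also near 0 in this table, with a highest sample of 0.0834 FPKM. A near-zero value in the table can therefore also belong to a gene that is usually widely expressed, and how fragments were assigned was not tested.

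Nanog (ENSMUSG00000012396, chr6:122707489-122714633, plus strand) was the only pluripotency transcription factor with fragments in every line, 81 in all. It read 0.187, 0.0486 and 0.0513 FPKM in KMF cells, 0.0601, 0 and 0.0969 in FAK KO cells and 0.0910, 0.0337 and 0.0432 in FAK-WT cells. It read 0.163 and 0.129 FPKM in FAK-R454 cells and 0.0637, 0.0534 and 0.231 in β-catenin ΔGSK cells. The order of the means was FAK-R454 (0.146 ± 0.0243, n = 2), β-catenin ΔGSK (0.116 ± 0.0994), KMF (0.0955 ± 0.0790), FAK-WT (0.0560 ± 0.0307) and FAK KO (0.0523 ± 0.0489 FPKM, SD, n = 3 each), and every pair of neighbours in that order overlapped. Both FAK-R454 samples were above all FAK KO and FAK-WT samples. No comparison passed the test described below, with adjusted p from 0.195 to 0.879 (limma, fit without a filter). The counting ratio of FAK-R454 to FAK KO, from 19 and 10 fragments, was 2.69 with a 95% exact interval of 1.19 to 6.48, which covers counting error only and not the spread between samples. The table keeps 2 processed copies of Nanog, Nanog-ps1 and Nanog-ps2, apart from the gene itself, and fragments can be shared between such copies.

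Lin28a (ENSMUSG00000050966, chr4:134003330-134018841, minus strand) stayed under the limit of 0.1 FPKM in every line, yet its few fragments were unevenly spread. FAK-R454 replicates 1 and 2 had 9 fragments each, or 0.0925 and 0.0811 FPKM. Replicate 1 of β-catenin ΔGSK had 4 fragments (0.0402 FPKM), FAK-WT replicate 2 had 1 (0.0106 FPKM), and the other 10 samples had 0. The 2 FAK-R454 samples were above all 12 others. Set against a floor of 3 fragments over the whole group, the 18 fragments of the FAK-R454 samples were, scaled to depth, at least 8.50-fold higher than in the FAK KO and at least 9.31-fold higher than in the KMF samples. Both bounds cover counting error of the 0 only and leave out that of the 18 fragments. The ratio to FAK-WT cells, with their lone fragment, was 26.7 with a 95% exact counting interval of 4.21 to 1111. The ratio to β-catenin ΔGSK cells, where fragments came from 1 sample, was 6.30 with an interval of 2.07 to 25.6. In the test described below, without a filter, Lin28a passed in FAK-R454 over FAK KO at 0.90 on the log2 scale (SE, the standard error, 0.14, adjusted p = 0.0211, limma) that depends on the pseudocount, in a fit where 7.08% of the genes tested passed. Lin28a entered this fit only through the FAK-R454 samples. The FAK KO samples all stood at 0 and show no spread. The SE thus rests on the 2 FAK-R454 samples and on the variance limma shares between genes. Lin28a passed under 8 of 13 alternatives. It missed the threshold without FAK KO replicate 1 or 3 (adjusted p = 0.0556 and 0.0897, limma). With the replicate number as a block it missed the threshold by far (0.90, adjusted p = 0.366, limma). It also missed without FAK-R454 replicate 1 (0.86) or 2 (0.94), where 1 sample is left in that line.

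To ask how loss and return of FAK, its kinase activity and active β-catenin bore on the markers, lines were compared 2 at a time with limma on log2(FPKM + 0.1), a scale that understates changes of low genes. A gene entered a comparison when its mean was above 1 FPKM in at least 1 of the 2 lines, passed when its Benjamini-Hochberg adjusted p over all genes tested was under 0.05, and was called when it also differed by a log2 fold change of 1 or more with over 1 FPKM in the higher line. Cd44 entered all 6 comparisons and Alppl2 entered 5. In KMF, FAK-WT and FAK-R454 over FAK KO and in β-catenin ΔGSK over FAK-WT, Alppl2 entered only through the line where it was higher. Genes of the lists with 1 line under 1 FPKM, such as Klf5 in FAK KO cells, entered in the same way. The other 8 markers never reached the filter, and their values are from the same fit without it. Every comparison with FAK KO uses the same 3 FAK KO samples. Differences were common among all genes, since 51.8% of those tested passed at any fold in KMF over FAK KO, 40.8% in FAK-WT over FAK KO, 19.7% in FAK-R454 over FAK KO, 58.1% in β-catenin ΔGSK over FAK KO, 7.82% in FAK-WT over FAK-R454 and 50.8% in β-catenin ΔGSK over FAK-WT. In the fit without a filter the shares that passed were 30.4%, 20%, 7.08%, 35.7%, 2.7% and 31.1% in the same order. The share called was 8.01%, 4.62%, 2.74%, 12.1%, 1.44% and 11.6%, again in that order. The shares of all genes that passed with the filter are the background for the counts of the gene lists below. Alppl2 was called in KMF, FAK-WT and FAK-R454 over FAK KO and in β-catenin ΔGSK over FAK-WT, and no other marker was called in any of the 6.

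**Figure D2:**
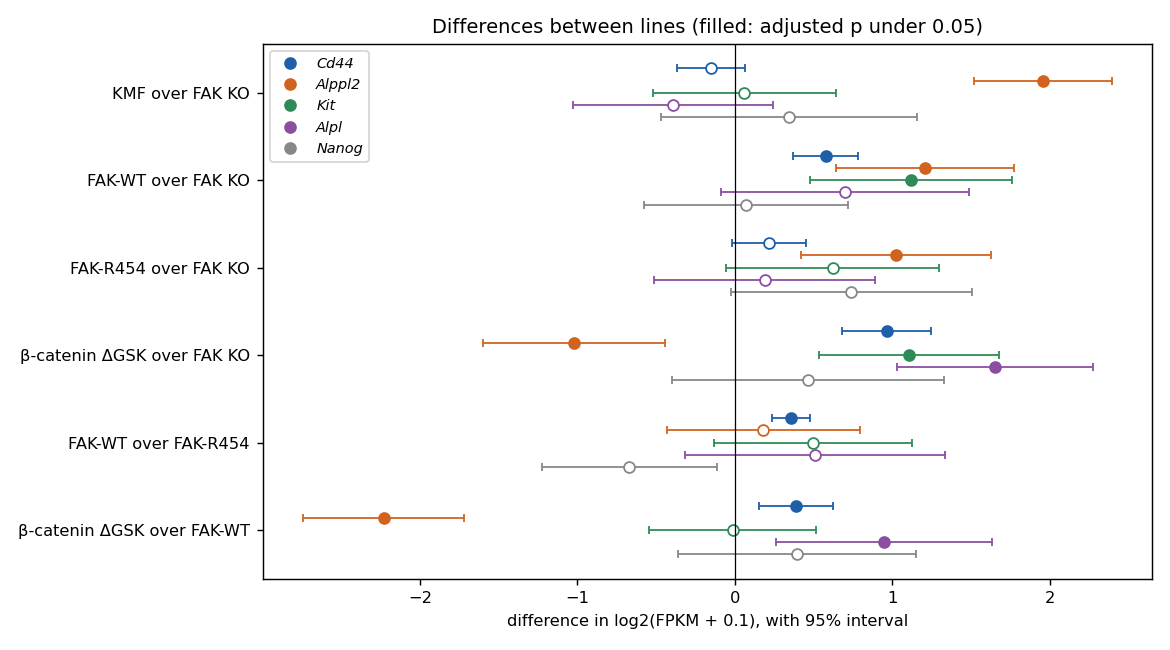
Difference in log2(FPKM + 0.1) between 2 lines (horizontal axis) with its 95% interval for 5 markers in 6 comparisons (vertical axis), where filled points have an adjusted p under 0.05. Alppl2 lies at 1.96 in KMF over FAK KO and at -2.23 in β-catenin ΔGSK over FAK-WT, and Cd44, Kit and Alpl lie above 0 in β-catenin ΔGSK over FAK KO, while Nanog is open throughout.

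Cd44 (ENSMUSG00000005087, chr2:102811141-102901665, minus strand) was by far the most abundant of the 10. It read 21.9, 21.3 and 23.7 FPKM in KMF cells, 28.2, 21.9 and 24.6 in FAK KO cells, 36.2, 36.5 and 38.3 in FAK-WT samples, 28.5 and 29.1 in FAK-R454 samples and 55.6, 49.3 and 41.4 in β-catenin ΔGSK cells. The line means ran from 48.8 ± 7.08 FPKM in β-catenin ΔGSK through 37.0 ± 1.16 in FAK-WT, 28.8 ± 0.398 in FAK-R454 (n = 2) and 24.9 ± 3.14 in FAK KO to 22.3 ± 1.27 in KMF cells (SD, n = 3 each), a 2.19-fold range. Samples of neighbouring lines in that order did not overlap, except those of FAK KO and KMF. Relative to FAK KO, Cd44 rose in FAK-WT cells by a log2 fold change of 0.58 (SE 0.09, adjusted p = 0.00219, limma) and in β-catenin ΔGSK cells by 0.97 (SE 0.12, adjusted p = 2.16e-04, limma). Neither reached the 1 needed for a call, but the second did so with median-of-ratios scaling (1.07), with chromosomes centred (1.03), without β-catenin ΔGSK replicate 3 (1.08) and without FAK KO replicate 1 (1.06). FAK-R454 differed from FAK KO cells by 0.22 (95% interval -0.02 to 0.45, adjusted p = 0.161, limma), and KMF by -0.15 (-0.37 to 0.07, adjusted p = 0.212, limma). Cd44 in FAK-WT cells exceeded its level in FAK-R454 by 0.36 (SE 0.05, adjusted p = 0.0161, limma), a difference that missed the threshold when either of the 2 FAK-R454 samples was left out (adjusted p = 0.178 and 0.174), without FAK-WT replicate 2 (adjusted p = 0.0786) and in 1 fit of all 5 lines (adjusted p = 0.0664). It was higher in β-catenin ΔGSK than in FAK-WT cells by 0.39 (SE 0.10, adjusted p = 0.0133, limma). Fragments were counted over the whole gene, so the splice forms of Cd44 are not separated.

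**Figure D3:**
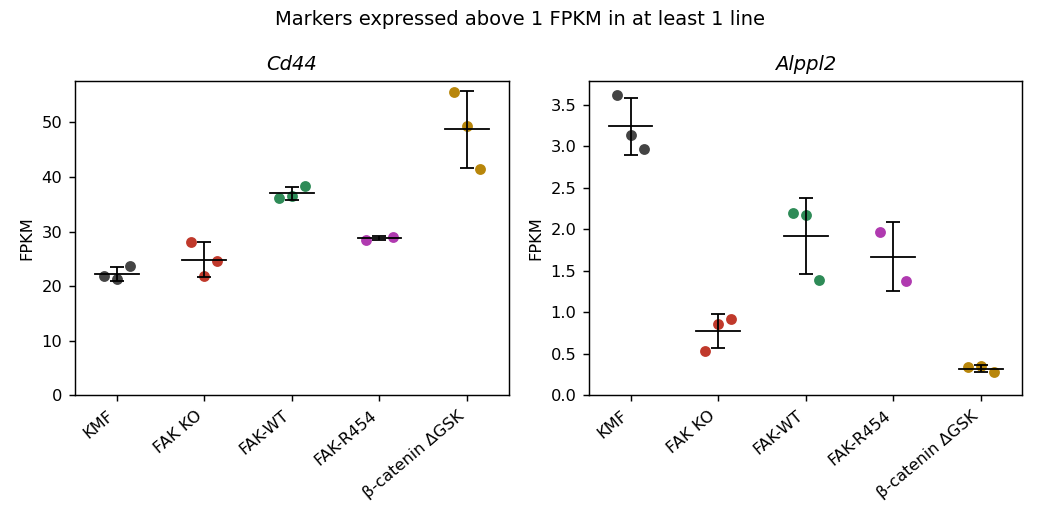
FPKM of Cd44 (left) and Alppl2 (right) in each sample (points) of the 5 lines, with the mean (long bar) and SD (whiskers). Cd44 was highest in β-catenin ΔGSK cells, at 41.4 to 55.6 FPKM, where Alppl2 was lowest, at 0.276 to 0.358 FPKM.

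Genes for the ligands of Cd44, for its partners and for its processing passed in both directions. Of 18 such genes all were found and 14 were above 1 FPKM in at least 1 line. Of 14 tested in FAK-WT over FAK KO, 4 passed as higher and 2 lower, where 40.8% of all genes passed. Of 12 tested in β-catenin ΔGSK over FAK KO, 4 passed as higher and 6 lower, where 58.1% of all genes passed. The medians were 0.05 and -0.17 on the log2 scale against -0.08 and -0.09 for all genes. The same counts were 6 and 4 for KMF (13 tested) and 3 and 3 for FAK-R454 (12 tested) over FAK KO. They were 2 and 1 for FAK-WT over FAK-R454, and 4 and 7 for β-catenin ΔGSK over FAK-WT (14 tested each). Has1, a hyaluronan synthase, rose from 4.40 ± 0.511 FPKM in FAK KO to 11.0 ± 1.37 in FAK-WT cells and fell to 1.31 ± 0.122 in the β-catenin ΔGSK line (mean ± SD, n = 3 each). Spp1, which encodes osteopontin, a secreted Cd44 ligand, fell from 641 ± 92.3 FPKM in FAK KO to 35.1 ± 2.85 in β-catenin ΔGSK cells, a log2 fold change of -4.18 (adjusted p = 1.88e-08, limma). Cd74, a partner of Cd44 at the cell surface, was called higher in both KMF and FAK-WT cells when set against FAK KO, by 1.59 and 1.54 on the log2 scale. Cd74 was called lower in β-catenin ΔGSK than in FAK-WT cells, by a log2 fold change of -1.32. The hyaluronidase gene Hyal1 met the limits of a call there at -1.09, but only just, since its FAK-WT samples ran from 0.655 to 1.54 FPKM around a mean of 1.01, against 0.397 ± 0.0423 in the β-catenin ΔGSK line (mean ± SD, n = 3). The ERM protein genes Ezr and Msn, which tie Cd44 to actin, were at 109 ± 6.05 and 159 ± 0.858 FPKM in FAK KO cells, and of the regulators of epithelial Cd44 splicing Esrp1 was at 0.0217 FPKM or less and Esrp2 at 2.5 to 4.32 FPKM in each line.

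Kit (ENSMUSG00000005672, chr5:75574916-75656722, plus strand) was transcribed at a low level in every sample. It read 0.125, 0.0888 and 0.0595 FPKM in KMF cells and 0.0317, 0.110 and 0.116 in FAK KO cells, from 5 to 19 fragments. It read 0.390, 0.277 and 0.231 FPKM in FAK-WT samples, 0.172 and 0.187 in FAK-R454 samples and 0.262, 0.301 and 0.311 in β-catenin ΔGSK cells, from 25 to 61 fragments. All samples of the 3 lines with an added gene were above all samples of KMF and FAK KO cells, a separation whose share over all genes was not counted. In the order of the means, FAK-WT (0.299 ± 0.0820) and β-catenin ΔGSK (0.291 ± 0.0258) overlapped, FAK-R454 (0.179 ± 0.0106, n = 2) was apart from its neighbours, and KMF (0.0910 ± 0.0327) and FAK KO (0.0858 ± 0.0469 FPKM, SD, n = 3 each) overlapped.

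In the fit without a filter Kit rose in β-catenin ΔGSK over FAK KO cells by a log2 fold change of 1.11 (SE 0.24, adjusted p = 0.0109, limma), and it passed under all 15 alternatives of processing. It rose in FAK-WT over FAK KO cells by 1.12 (SE 0.27, adjusted p = 0.0294, limma), where 9 of 15 alternatives passed, with adjusted p from 0.00332 to 0.0868. It missed the threshold without either of FAK-WT replicates 1 and 2 or FAK KO replicates 1 and 3 (adjusted p = 0.0605 to 0.0820, limma). It also missed with the replicate number as a block (adjusted p = 0.0868) and with a pseudocount of 0.01 (adjusted p = 0.0521, limma). The sizes of both rises depend on the pseudocount. For β-catenin ΔGSK and FAK-WT over FAK KO they were 0.25 and 0.26 with 1, and 1.81 and 1.82 with 0.01. With limma-voom on recovered fragments they were 1.945 and 1.951. FAK-R454 over FAK KO gave 0.62 (95% interval -0.05 to 1.30, adjusted p = 0.241, limma) and FAK-WT over FAK-R454 gave 0.50 (-0.13 to 1.13, adjusted p = 0.378, limma). KMF over FAK KO gave 0.06 (-0.52 to 0.64) and β-catenin ΔGSK over FAK-WT -0.01 (-0.54 to 0.52), with adjusted p of 0.877 and 0.980. In RNA of a whole culture, more cells with Kit and more Kit RNA per cell cannot be told apart. Nor can the added genes be told apart from the transduction and selection that the lines carrying them share. Of 8 markers of mast cells and melanocytes, which depend on Kit, the sum was 0.185 to 0.731 FPKM per sample. The highest was Pmel, at 0.178 (KMF) to 0.352 (FAK KO) FPKM by line. Mcpt4 ran from 0.0133 (β-catenin ΔGSK) to 0.115 (FAK-WT), and Ms4a2 and Tpsb2 were at 0 in all 14 samples. Germ cells also express Kit, and their 6 markers summed to 0.0613 to 0.619 FPKM, with Dppa3 and Mael at 0 in all samples. Sycp3 was the highest of the 6, at 0.131 (β-catenin ΔGSK) to 0.364 (FAK KO) FPKM by line. The part of these cells in the Kit result was not tested.

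The ligand of the receptor was far more abundant than the receptor. Kitl, stem cell factor, was 34.4 ± 6.95 FPKM in β-catenin ΔGSK, 26.5 ± 4.33 in FAK KO, 20.03 ± 1.30 in FAK-WT and 16.9 ± 0.407 in KMF samples (mean ± SD, n = 3 each) and 24.2 ± 2.06 in FAK-R454 samples (n = 2). Its level in FAK-WT samples, where the mean of Kit was highest, was in each sample below each of the FAK KO samples. Of 15 genes for the ligand and the relay of its signal, 14 were above 1 FPKM in some line. Tested were 14 in each comparison, except 13 in β-catenin ΔGSK over FAK KO. Higher and lower genes that passed numbered 4 and 2 in KMF, 3 and 3 in FAK-WT, 2 and 0 in FAK-R454 and 3 and 5 in β-catenin ΔGSK over FAK KO, 0 and 0 in FAK-WT over FAK-R454, and 4 and 6 in β-catenin ΔGSK over FAK-WT. The list's median was within 0.10 of 0 on the log2 scale in all 6. Ptpn6, which encodes the phosphatase SHP-1, a brake on Kit signaling, was the called gene of this list. It rose from 0.688 ± 0.165 FPKM in FAK KO to 2.07 ± 0.233 in FAK-WT (SD, n = 3 each) and 1.70 ± 0.337 in FAK-R454 cells (n = 2), and was lower in β-catenin ΔGSK than in FAK-WT cells by a log2 fold change of -1.80. Pdgfra, the neighbouring receptor gene of the same family, exceeded its FAK KO level in KMF, FAK-WT and FAK-R454 cells, by 1.55, 1.72 and 1.53 on the log2 scale, and was called lower than in FAK KO in the β-catenin ΔGSK line, by a log2 fold change of -1.77.

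**Figure D4:**
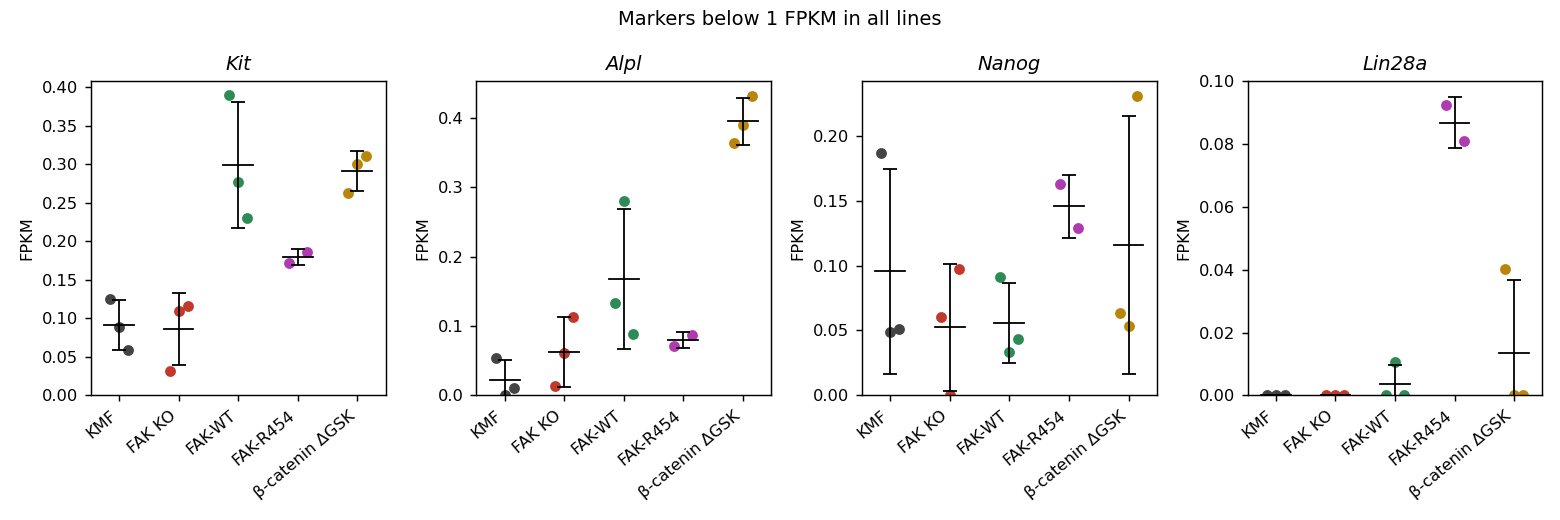
FPKM of Kit, Alpl, Nanog and Lin28a in each sample (points) of the 5 lines, with the mean (long bar) and SD (whiskers), and a vertical axis that differs between panels. Kit was at 0.172 FPKM or more in each sample of the 3 lines with an added gene and at 0.125 or less in KMF and FAK KO cells, and Alpl was highest in the 3 β-catenin ΔGSK samples.

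Prom1 (ENSMUSG00000029086, chr5:43993625-44102032, minus strand) had a single fragment, in KMF replicate 2 (0.00957 FPKM), and 0 in the other 13 samples. The limit of 3 fragments was 0.0227 to 0.0316 FPKM, the lowest among the silent genes because Prom1 is the longest of them. Its relative Prom2 was at 0.0169 FPKM or less in every line.

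Alppl2 (ENSMUSG00000026246, chr1:87086694-87089928, minus strand) varied most among the expressed markers. It read 3.62, 3.13 and 2.97 FPKM in KMF cells, 0.540, 0.862 and 0.922 in FAK KO cells, 2.20, 2.17 and 1.38 in FAK-WT samples, 1.96 and 1.37 in FAK-R454 samples and 0.337, 0.358 and 0.276 in β-catenin ΔGSK cells. The means were 3.24 ± 0.339, 0.775 ± 0.205, 1.92 ± 0.462, 1.67 ± 0.416 (n = 2) and 0.324 ± 0.0424 FPKM (SD, n = 3 each) in the same order, so KMF cells were highest and β-catenin ΔGSK cells lowest. FAK-WT and FAK-R454 samples overlapped, and all other neighbours were apart. Krt14, given above, was likewise lowest in β-catenin ΔGSK cells. Its means in KMF and FAK-WT cells were alike, at 53.4 ± 6.98 and 53.3 ± 12.9 FPKM (SD, n = 3 each). The part of Krt14 in the result was not tested.

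Relative to FAK KO, Alppl2 was called higher in KMF cells by a log2 fold change of 1.96 (SE 0.19, adjusted p = 7.36e-05, limma) and in FAK-WT cells by 1.21 (SE 0.25, adjusted p = 0.00674, limma). It entered both comparisons only through the higher line, and the fit without a filter gave adjusted p = 6.20e-04 and 0.0206 (limma). The rise in FAK-WT cells still passed but fell short of the fold of a call with a pseudocount of 1 (0.71) and without FAK KO replicate 1 (0.997). In FAK-R454 over FAK KO it was called at 1.02 (SE 0.26, adjusted p = 0.0311, limma), but missed the threshold without FAK-R454 replicate 1 (0.78, adjusted p = 0.266) or replicate 2 (1.27, adjusted p = 0.0796) and in the fit without a filter (1.02, adjusted p = 0.0881). With a pseudocount of 1 or without FAK KO replicate 1 it passed at 0.59 and 0.81, under the fold of a call. FAK-WT and FAK-R454 cells did not separate, with a difference of 0.18 and a 95% interval of -0.43 to 0.79 (adjusted p = 0.674, limma). Of the 6 comparisons fitted, the largest difference was in β-catenin ΔGSK over FAK-WT, at -2.23 (SE 0.22, adjusted p = 8.07e-05, limma). Against FAK KO, where neither line reached 1 FPKM, Alppl2 fell in β-catenin ΔGSK cells by 1.02 on the log2 scale (SE 0.25, adjusted p = 0.0158, fit without a filter, limma), and missed the threshold without FAK KO replicate 3 (adjusted p = 0.0571) or β-catenin ΔGSK replicate 3 (adjusted p = 0.0516). A noncoding gene on the opposite strand, RP24-286D13.6, spans Alppl2, and without strand information, whose use in counting is not stated in the sources, their fragments cannot be told apart. It read 0.0807 to 0.631 FPKM over the 14 samples, with means of 0.294 ± 0.166 in KMF cells, 0.270 ± 0.166 in FAK KO, 0.394 ± 0.211 in FAK-WT, and 0.138 ± 0.0351 in the β-catenin ΔGSK line (mean ± SD, n = 3 each) and 0.366 ± 0.115 in FAK-R454 cells (n = 2). The related phosphatase genes Alpi and Akp3, which share sequence with Alppl2, were at 0.0371 and 0.0295 FPKM or less in each line.

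Alpl (ENSMUSG00000028766, chr4:137741733-137796384, minus strand), the other alkaline phosphatase, was low everywhere and was highest where Alppl2 was lowest. It read 0.0546, 0 and 0.0112 FPKM in KMF cells, 0.0132, 0.0608 and 0.113 in FAK KO cells, 0.133, 0.281 and 0.0884 in FAK-WT samples, 0.0714 and 0.0876 in FAK-R454 samples and 0.363, 0.390 and 0.431 in β-catenin ΔGSK cells. The 3 β-catenin ΔGSK samples, with 25 to 32 fragments each, were above the other 11, which had 0 to 19. The means were 0.395 ± 0.0342 FPKM in β-catenin ΔGSK, 0.167 ± 0.101 in FAK-WT, 0.0795 ± 0.0115 in FAK-R454 (n = 2), 0.0624 ± 0.0501 in FAK KO and 0.0219 ± 0.0288 in KMF cells (SD, n = 3 each). FAK-R454 overlapped with FAK KO and FAK KO with KMF samples, and β-catenin ΔGSK was apart from FAK-WT. FAK-WT and FAK-R454 met, with 7 fragments each in FAK-WT replicate 3 and FAK-R454 replicate 2. Alpl rose in β-catenin ΔGSK over FAK KO cells by a log2 fold change of 1.65 (SE 0.26, adjusted p = 0.00268, limma, fit without a filter), and passed under all 15 alternatives. The size depends on the pseudocount, at 0.39 with 1 and 2.78 with 0.01, and limma-voom on recovered fragments gave 2.9. Alpl was higher in β-catenin ΔGSK than in FAK-WT cells by 0.95 (SE 0.29, adjusted p = 0.0443, limma), which passed under 8 of 15 alternatives. These alternatives ran from 0.26 to 1.39. The remaining comparisons did not pass, with 0.70 (95% interval -0.08 to 1.49) in FAK-WT over FAK KO, 0.19 (-0.51 to 0.89) in FAK-R454 over FAK KO, -0.39 (-1.03 to 0.24) in KMF over FAK KO and 0.51 (-0.31 to 1.34) in FAK-WT over FAK-R454 (adjusted p = 0.188, 0.723, 0.338 and 0.475, limma).

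Among 9 genes of phosphatases and phosphate handling, 6 were tested. In β-catenin ΔGSK over FAK KO 1 was higher and 5 were lower, with a median of -1.01 on the log2 scale against -0.09 for all genes. Ank, which exports pyrophosphate, fell from 49.7 ± 0.675 to 12.4 ± 0.551 FPKM, Enpp1, which makes pyrophosphate outside the cell, from 21.2 ± 1.88 to 7.80 ± 0.514 FPKM, and Nt5e (CD73) from 2.66 ± 0.108 to 0.975 ± 0.153 FPKM (SD, n = 3 each). Phospho1, a phosphatase of mineralizing bone, rose from 1.20 ± 0.0401 to 3.26 ± 0.537 FPKM. The counts higher and lower were 2 and 2 in KMF, 4 and 1 in FAK-WT and 2 and 1 in FAK-R454 over FAK KO, 1 and 0 in FAK-WT over FAK-R454 and 1 and 3 in β-catenin ΔGSK over FAK-WT. In KMF over FAK KO, Nt5e was called lower by a log2 fold change of -1.85 and Phospho1 higher by 1.19.

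Most of the wider pluripotency network was silent too. Of 32 further network genes, 22 were silent by the limit of 0.1 FPKM in all lines, against 37.9% of protein-coding genes, Esrrb and Dppa3 among them, and 10 were above 1 FPKM in some line. The 10 included Klf4, at 67.2 to 196 FPKM by line, and Stat3, Il6st and Lifr of the LIF response, with Lifr at 12.5 ± 1.03 FPKM in FAK KO, 17.5 ± 0.291 in FAK-WT, and 20.3 ± 1.77 in the β-catenin ΔGSK line (mean ± SD, n = 3 each). Of these 10, 4 were higher and 2 lower in KMF over FAK KO, 6 and 1 in FAK-WT, 3 and 1 in FAK-R454, and 3 and 5 in β-catenin ΔGSK over FAK KO. The counts were 2 and 1 in FAK-WT over FAK-R454 and 0 and 5 in β-catenin ΔGSK over FAK-WT. The list's median in FAK-WT over FAK KO was 0.36 on the log2 scale, against -0.08 for all genes, and it lay below that of all genes at -0.24 in β-catenin ΔGSK over FAK KO (all genes -0.09) and at -0.25 in β-catenin ΔGSK over FAK-WT (all genes -0.01).

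Klf5, a Krüppel-like factor of pluripotent and epithelial cells, was called in 3 of these comparisons. It rose from 0.753 ± 0.0609 FPKM in FAK KO to 3.53 ± 0.276 in KMF, 2.51 ± 0.461 in FAK-WT, and 2.86 ± 0.267 in the β-catenin ΔGSK line (mean ± SD, n = 3 each). Tfcp2l1, a factor of naive pluripotency that kidney and other epithelia also use, fell from 9.79 ± 0.159 FPKM in FAK KO to 4.71 ± 0.208 in FAK-WT, and 3.69 ± 0.253 in the β-catenin ΔGSK line. Lefty1, an inhibitor of Nodal, was called higher in KMF than in FAK KO cells by 1.03 on the log2 scale, and lower in β-catenin ΔGSK than in FAK-WT cells by a log2 fold change of -1.03. Tcf7l1, a repressor in the Wnt pathway, was called lower in the β-catenin ΔGSK line when set against FAK KO and FAK-WT cells, by log2 fold changes of -1.02 and -1.53.

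Beside Lin28a, its relative Lin28b was silent, at 0.00877 FPKM or less in each line. Of 13 genes of the Lin28 and let-7 axis 7 were tested, and those higher and lower numbered 4 and 1 in KMF, 2 and 1 in FAK-WT, 0 and 0 in FAK-R454 and 1 and 2 in β-catenin ΔGSK over FAK KO. They numbered 1 and 0 in FAK-WT over FAK-R454 and 1 and 2 in β-catenin ΔGSK over FAK-WT. Hmga2, a let-7 target, fell from 6.88 ± 0.672 FPKM in FAK KO to 2.63 ± 0.439 in the β-catenin ΔGSK line (mean ± SD, n = 3 each), and was also called lower there than in FAK-WT cells, where it was 9.31 ± 1.09 FPKM.

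Of 20 other stem-cell and cancer stem-cell markers, 12 were above 1 FPKM in some line and 5 were silent. Tested were 12 in each comparison with β-catenin ΔGSK and 11 in each of the others. Higher and lower genes that passed numbered 4 and 4 in KMF, 2 and 6 in FAK-WT, 1 and 5 in FAK-R454 and 1 and 7 in β-catenin ΔGSK over FAK KO, 2 and 2 in FAK-WT over FAK-R454, and 4 and 5 in β-catenin ΔGSK over FAK-WT. Those lower outnumbered those higher in 3 of the 4 comparisons with FAK KO, which share the FAK KO samples. All genes that passed were not split by direction here, so no lean of the list is read from these counts. Of all genes called over FAK KO, higher and lower numbered 472 and 481 in KMF and 344 and 203 in FAK-WT. They numbered 228 and 96 in FAK-R454 and 611 and 833 in β-catenin ΔGSK. The medians of the list were -0.42 in FAK-WT, -0.46 in β-catenin ΔGSK, 0.07 in FAK-R454 and 0.10 in KMF over FAK KO on the log2 scale, against -0.08, -0.09, -0.03 and -0.05 for all genes. Ly6a (Sca-1) was 119 ± 15.8 FPKM in KMF cells, 8.24 ± 0.892 in FAK KO, 21.0 ± 3.14 in FAK-WT, and 0.559 ± 0.0987 in the β-catenin ΔGSK line (mean ± SD, n = 3 each), and each of the 3 differed from FAK KO by a called amount. Lgr5, a Wnt target of intestinal stem cells, rose from 0.0837 ± 0.0187 FPKM in FAK KO to 7.43 ± 0.321 in β-catenin ΔGSK cells, a log2 fold change of 5.36 (adjusted p = 3.65e-08, limma). In FAK-R454 over FAK KO cells, Cd24a fell by 1.27 and Aldh1a1, an aldehyde dehydrogenase of stem-like cells, fell by 1.17 on the log2 scale. Nt5e, given above, counts in this list as well. Cd24a also fell in β-catenin ΔGSK cells, by 1.46, and Sox9 was lower there than in FAK-WT cells by a log2 fold change of -1.03. Among 16 relatives of the markers 12 were silent, and only Pdgfra and Yy1, a relative of Zfp42, were above 1 FPKM, with Yy1 at 31.4 to 34.8 FPKM by line.

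The genes whose log2(FPKM + 0.1) over the 14 samples was most like that of the 2 expressed markers were sought among 12255 genes. For Cd44 they were Sgk1 (Pearson r = 0.979), Lipa (r = 0.978) and Lifr (r = 0.977), and for Alppl2 they included Cxcl5 (r = 0.974) and Ly6c1 (r = 0.971). Sgk1, a serum-induced kinase, ran like Cd44 from 32.6 FPKM in KMF to 76.8 in β-catenin ΔGSK cells, and Cxcl5, a chemokine, ran like Alppl2 from 4.22 in KMF to 0.0227 in β-catenin ΔGSK cells. These values are a description over samples that share lines, and the order is unstable. Over the 5 line means, 0 of the 3 genes for Cd44 remained among the top 3, and with Spearman's rho 1 did, while for Alppl2 1 of 3 remained over the line means and 0 with Spearman's rho.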

How the data were processed

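RNA of 14 tumorsphere samples of 5 lines was sequenced as poly(A)-selected paired-end libraries. The authors deposited FPKM values for 35275 genes, 1 column per sample. The methods of the study name TopHat2 for mapping, while the submitters' processing notes list STAR 2.5, CASAVA 1.8, DESeq2 and build mm10. The tool that made the FPKM values and the annotation release are not given in the sources used here. Of 34490 genes matched to GENCODE M21 on GRCm38, 72.2% had identical coordinates, as had 8 of the 10 markers (not Prom1 and Zfp42).

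Fragments were recovered from FPKM and gene length. Lines were compared with limma 3.58.1 in R 4.3.3 (lmFit, eBayes with trend), as the report states, and the code was tested on simulated data. The comparison of β-catenin ΔGSK with FAK-WT cells, the use of the fit without a filter for low markers and the motif search were added after seeing the data. The markers and gene lists were chosen with earlier results of these data known. Named are all 10 markers, genes called from the lists (at most 4 per list and comparison), the 3 genes most like each expressed marker (1 of them is not reported here), Ptk2 and Ctnnb1, and defining cell type markers. Genes named at other levels in the lists were chosen after their values were seen. Alternatives were another pseudocount, filter, scaling, trend, fit, block and fold, limma-voom on recovered fragments, chromosome centring and leaving out each replicate.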

Additional observations from a re-analysis of the deposited data

Results flagged for a closer look

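Differences between the lines with an added gene (β-catenin ΔGSK, FAK-R454 and FAK-WT) were found for 4 of the markers, by a test of the difference itself (limma). Of all genes tested, 7.82% passed in FAK-WT over FAK-R454 and 50.8% in β-catenin ΔGSK over FAK-WT, and 2.7% and 31.1% in the fit without a filter, from which the values of Alpl and Lin28a come. FAK-WT exceeded FAK-R454 cells in Cd44 by 0.36 on the log2 scale (passing under 11 of 15 alternatives), and β-catenin ΔGSK exceeded FAK-WT cells by 0.39. Alpl was higher in β-catenin ΔGSK than in FAK-WT cells by 0.95 (passing under 8 of 15). Alppl2 went the other way in that comparison, with a log2 fold change of -2.23. Lin28a, silent by the limit of 0.1 FPKM, differed by -0.85 on that scale when FAK-WT was set over FAK-R454 cells. That fitted value depends on the pseudocount and rests on 19 fragments in 5 samples, 18 of them in FAK-R454 cells. The difference passed under 4 of 13 alternatives.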

How the results depend on the processing

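No difference of the markers that passed changed its direction under any alternative run, while the other genes named from the lists were run under none. Cd44 in FAK-WT and β-catenin ΔGSK over FAK KO and in β-catenin ΔGSK over FAK-WT, and Alppl2 in KMF and FAK-WT over FAK KO and in β-catenin ΔGSK over FAK-WT, passed under all 16. With a pseudocount of 1, calls over all genes relative to FAK KO numbered 566 (KMF), 273 (FAK-WT), 145 (FAK-R454) and 955 (β-catenin ΔGSK), and 76 in FAK-WT over FAK-R454. With a log2 fold change of 0.5 they numbered 2777, 1945, 1030, 3872 and 443, and 3236 in β-catenin ΔGSK over FAK-WT. Leaving out 1 replicate gave 7 to 220 calls in FAK-WT over FAK-R454, lowest without FAK-R454 replicate 1 (7) or 2 (8). With limma-voom on recovered fragments 1013, 583, 348, 1514, 195 and 1422 genes were called in the 6 comparisons. Markers called in FAK-WT over FAK KO were 0 with the pseudocount of 1, 2 with a fold of 0.5, and 0 to 1 without a replicate, with 0 without FAK KO replicate 1. In FAK-R454 over FAK KO they were 0 with the pseudocount of 1 or no filter (Alppl2 at 1.02, adjusted p = 0.0881), and 0 to 1 without a replicate, with 0 without FAK KO replicate 1 or either FAK-R454 replicate. In β-catenin ΔGSK over FAK KO they were 1 (Cd44) with median-of-ratios scaling, centred chromosomes or a fold of 0.5, and 0 to 1 without a replicate, with 1 without FAK KO replicate 1 or β-catenin ΔGSK replicate 3. The cause of these shifts was not tested, beyond the smaller log2 values that a pseudocount of 1 gives.

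Without 1 replicate, Cd44 ran from -0.24 to -0.058 in KMF over FAK KO (passing without FAK KO replicate 2, adjusted p = 0.0489), from 0.13 to 0.31 in FAK-R454 over FAK KO (passing without FAK KO replicate 1, adjusted p = 0.0203). It ran from 0.87 to 1.08 in β-catenin ΔGSK over FAK KO and from 0.33 to 0.38 in FAK-WT over FAK-R454. In 1 fit of all 5 lines the last was 0.36 and did not pass (adjusted p = 0.0664). Alppl2 ran from 0.78 to 1.27 in FAK-R454 and from -1.23 to -0.89 in β-catenin ΔGSK over FAK KO.

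In no comparison did every pair of same-numbered samples correlate above a limit of 0.1, so the numbers were not taken as pairs. In β-catenin ΔGSK over FAK KO, though, all correlations were positive, at 0.446, 0.280 and 0.0759. A block by replicate there lowered the SE of Cd44 from 0.12 to 0.077, so replicates that share a deviation are not excluded in that comparison. With the replicate number as a block, calls were 958, 552, 329 and 1447 over FAK KO (KMF, FAK-WT, FAK-R454, β-catenin ΔGSK), 222 in FAK-WT over FAK-R454 and 1378 in β-catenin ΔGSK over FAK-WT. Kit in FAK-WT over FAK KO was then 1.12 (adjusted p = 0.0868), and Alpl in β-catenin ΔGSK over FAK-WT 0.95 (adjusted p = 0.0758). Lin28a gave 0.90 in FAK-R454 over FAK KO (adjusted p = 0.366). Between FAK-WT and FAK-R454 it gave -0.83 (adjusted p = 0.171). Depth limits the low markers, for which 1 to 61 fragments stand behind each nonzero value.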
